A study of Homo sapiens with 6 samples.

Results

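The aminoacyl-tRNA synthetases and the scaffold proteins of their complex were followed in the human gastric cancer line HGC-27, with and without the peptide GLUP. The 38 genes were taken from a list of named cytosolic and mitochondrial synthetases and their partners, and each was found by its symbol in a table of 62443 genes. They fell into 4 classes: 7 synthetases of the multisynthetase complex, 3 scaffolds of that complex, 12 other cytosolic synthetases and 16 mitochondrial synthetases. Testing required an average level of 1 FPKM or more across the 6 libraries, and 30 of the 38 genes met it, among 7406 in the whole table. FPKM is a number of sequenced fragments scaled to the length of a gene and to the total of its library, so that levels can be set side by side between genes but are shares of a library and not amounts per cell. The 8 genes below the minimum were all mitochondrial (AARS2, EARS2, LARS2, MARS2, NARS2, PARS2, SARS2 and VARS2).

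Total RNA was profiled in 3 control libraries (Con) and 3 libraries of cells given GLUP, a cyclic peptide made from the part of VGLL4 that binds the Hippo pathway transcription factor TEAD4. The labels give Con as untreated, whereas the study's methods describe controls that received the peptide's buffer. The labels state neither a dose nor a duration for GLUP, and the durations that the study's results and methods give for RNA sequencing differ. Both groups were grown in the same medium with serum, and the line is the single one sequenced. The study's methods speak of biological replicates for the RNA but do not tie them to these libraries, and where libraries share a culture the p-values measure spread that may be technical.

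Aminoacyl-tRNA synthetases join each amino acid to its own tRNAs, the step at which the genetic code is read chemically. The cytosol and the mitochondria use separate sets of enzymes, mostly from separate nuclear genes, while the lysine and glycine enzymes of both compartments come from KARS1 and GARS1. In animal cells a group of the cytosolic enzymes is held together by the scaffolds AIMP1, AIMP2 and EEF1E1, and many cytosolic synthetase genes are induced through the transcription factor ATF4 when amino acids run short.

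The C/EBP-ATF response element is the sequence through which ATF4 acts, and its core was looked for in the promoters because it is a feature that several cytosolic members share and that did not enter their choice. The letters TGATGNAA were searched on both strands of RefSeq promoter windows (GRCh38.p14, 250 bases before to 50 after a start site), with no other motif searched. Of all 35116 windows, 3.62% held them, and so did 4.46% of the 27305 genes with a window. Windows were matched for 33 of the 38 members. AARS2, LARS1, VARS1, VARS2 and YARS1 were not matched. The letters were present for 8 members (24.2% of the 33), which were 7 of 19 cytosolic genes and scaffolds (36.8%) and 1 of 14 mitochondrial genes (7.14%). The stretches around the 8 matches are given in the direction of the gene, with the matched letters or their reverse complement in capitals.
IARS1 (chr9:92293698-92293740, minus strand): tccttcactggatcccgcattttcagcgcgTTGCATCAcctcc
MARS1 (chr12:57488056-57488077, plus strand): ggttccggTTGCATCAgcgagg
AARS1 (chr16:70289656-70289723, minus strand): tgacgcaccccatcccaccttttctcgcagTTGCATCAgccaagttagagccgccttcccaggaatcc
CARS1 (chr11:3057412-3057433, minus strand): ggcggcggTTGCATCAgattct
GARS1 (chr7:30594815-30594877, plus strand): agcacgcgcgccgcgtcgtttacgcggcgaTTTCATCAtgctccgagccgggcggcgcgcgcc
NARS1 (chr18:57621809-57621830, minus strand): acgctctcTGATGCAAcgccgg
TARS1 (chr5:33440959-33440980, plus strand): cctttcgaTTGCATCAgctggt
YARS2 (chr12:32756057-32756124, minus strand): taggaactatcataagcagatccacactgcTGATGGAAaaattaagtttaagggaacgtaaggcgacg
The form TTGCATCA occurred in 5 of these members (IARS1, MARS1, AARS1, CARS1 and TARS1), and NARS1 held the same letters on the other strand. In MARS1 and CARS1 the match lay across the start site, and in YARS2 it began 197 bases before it. A match is a description of the letters and not of a site that is bound.

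The libraries differed in ways that bear on these genes. Con 2 stood apart, its mean correlation with the rest being 0.898, where the other five libraries had 0.954 to 0.964. The deviation of each library from the mean of all 6 followed the GC content of the transcripts, with Spearman correlations across genes of -0.34 and -0.60 in Con 1 and Con 2 but 0.34 to 0.54 in Con 3 and the 3 GLUP libraries. GC content and treatment are therefore partly confounded, and values corrected within each library for a trend in GC content and transcript length are given beside the results. Among defining markers, the mesenchymal gene VIM stood at 222 to 387 FPKM and the epithelial keratins KRT8, KRT18 and KRT19 at 0.764 to 1.88 FPKM in Con and 1.25 to 2.51 FPKM in GLUP, each higher in every GLUP library than in any control, while the epithelial EPCAM and CDH1 did not exceed 0.124 and 0.0799 FPKM. The leukocyte, endothelial and erythroid markers PTPRC, CD3E, CD68, VWF and HBB were at or near 0, and the fibroblast gene DCN stood at 16.03 to 41.3 FPKM.

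The levels of the synthetases spanned a wide range in both groups. WARS1 and SARS1, which charge the tryptophan and serine tRNAs, made up 47.4% to 67.5% of the summed FPKM of the 19 cytosolic synthetases in a library. Within the multisynthetase complex, whose enzymes are held in one particle, the mean levels ranged from 3.88 FPKM (QARS1) to 30.1 FPKM (LARS1), and the scaffolds ranged from 11.8 FPKM (AIMP1) to 444 FPKM (AIMP2). The mitochondrial genes were lower, with CARS2 the highest of the 16 at 6.69 FPKM on average. Levels were set side by side for the 13 pairs of members whose symbols differ only in the final 1 (cytosolic) or 2 (mitochondrial). The cytosolic gene had the higher mean level in the 12 of these pairs where a ratio could be formed, from 1.07 times for CARS1 and CARS2 to 281 times for SARS1 and SARS2. VARS2 was listed at 0 in all 6 libraries.

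**Figure D1:**
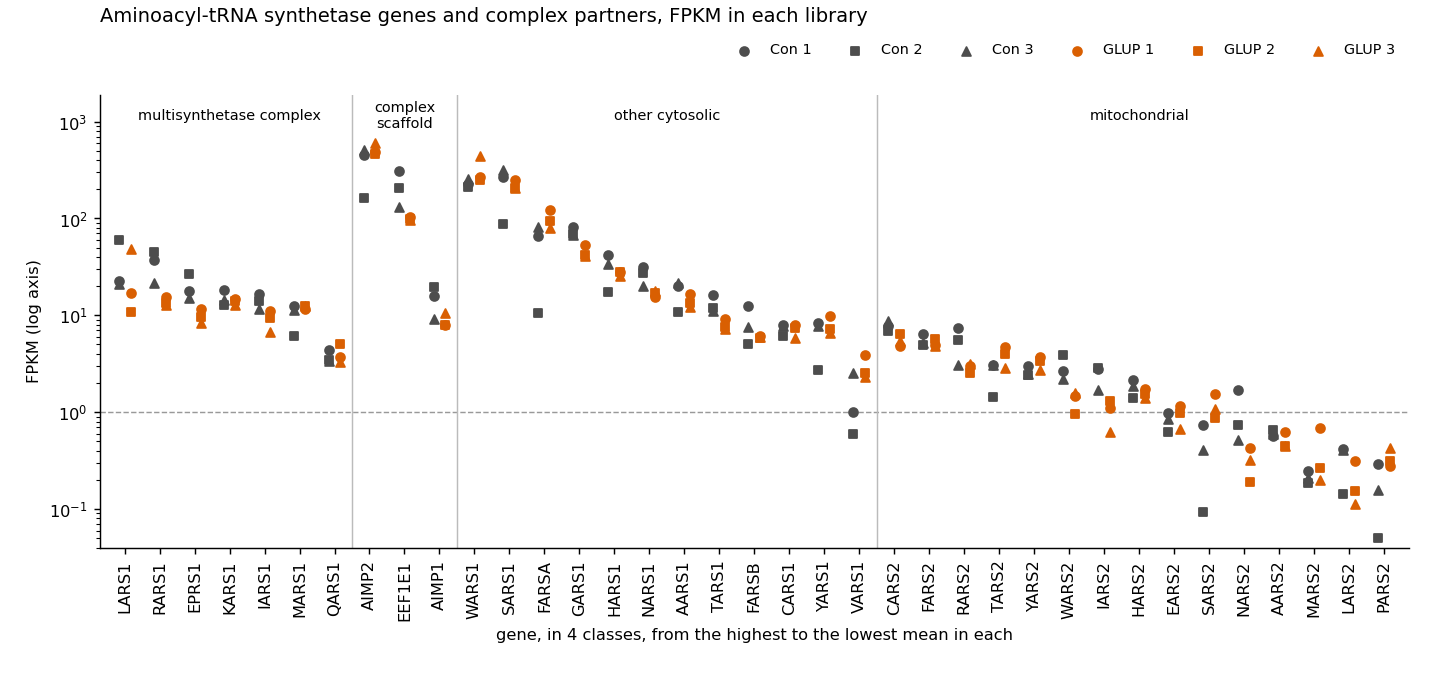
FPKM of each member in each of the 6 libraries on a logarithmic axis, by class and from the highest to the lowest mean within a class, with Con in grey and GLUP in orange and the replicate number as the symbol. The dashed line marks the minimum of 1 FPKM, and VARS2, at 0 in every library, is not drawn. The GLUP values lie below all Con values for RARS1, EPRS1, EEF1E1 and GARS1, and the Con 2 squares lie far below the other values for FARSA and SARS1.

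To ask which synthetase genes differed between cells with and without the peptide, log2(FPKM + 1) was compared between GLUP and Con with limma, a linear model fitted to all 7406 genes. More members were lower in GLUP than higher, and no member passed the test after adjustment. The Benjamini-Hochberg adjusted p was under 0.05 for 0 of the 30 tested members, and so it was for 0% of all genes tested (the smallest adjusted p among members was 0.194). At an unadjusted p under 0.05, 7 members were lower in GLUP (RARS1, EPRS1, EEF1E1, GARS1, TARS1, IARS2 and WARS2), against 17.2% of all genes tested. VARS1 was the 1 member higher at that threshold, against 4.46% of all genes. The 3 GLUP values lay wholly below the 3 Con values for 10 members, against 22.7% of all genes, and wholly above them for 0 members, against 7.55%. The 10 were the 7 above with IARS1, NARS1 and CARS2.

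The direction of the members as a whole was close to that of the table. Means were lower in GLUP for 20 of the 30 members (66.7%) and for 65.5% of all genes tested. The median log2 difference was -0.19 over the members and -0.23 over all genes. Scaling the libraries by a trimmed mean of log ratios moved the median of all genes to -0.01, and 14 members were then lower and 16 higher. By class the median was -0.52 for the complex synthetases, -0.63 for the 3 scaffolds, -0.07 for the other cytosolic synthetases and -0.28 for the 8 tested mitochondrial synthetases. With the GC and length trend removed these class medians were -0.049, 0.041, 0.046 and -0.12, against 0.0075 for all genes. In an exact permutation test of a single gene, 3 against 3 libraries cannot give a p below 0.1. In bulk RNA, fewer cells of a kind and less RNA per cell cannot be told apart.

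**Figure D2:**
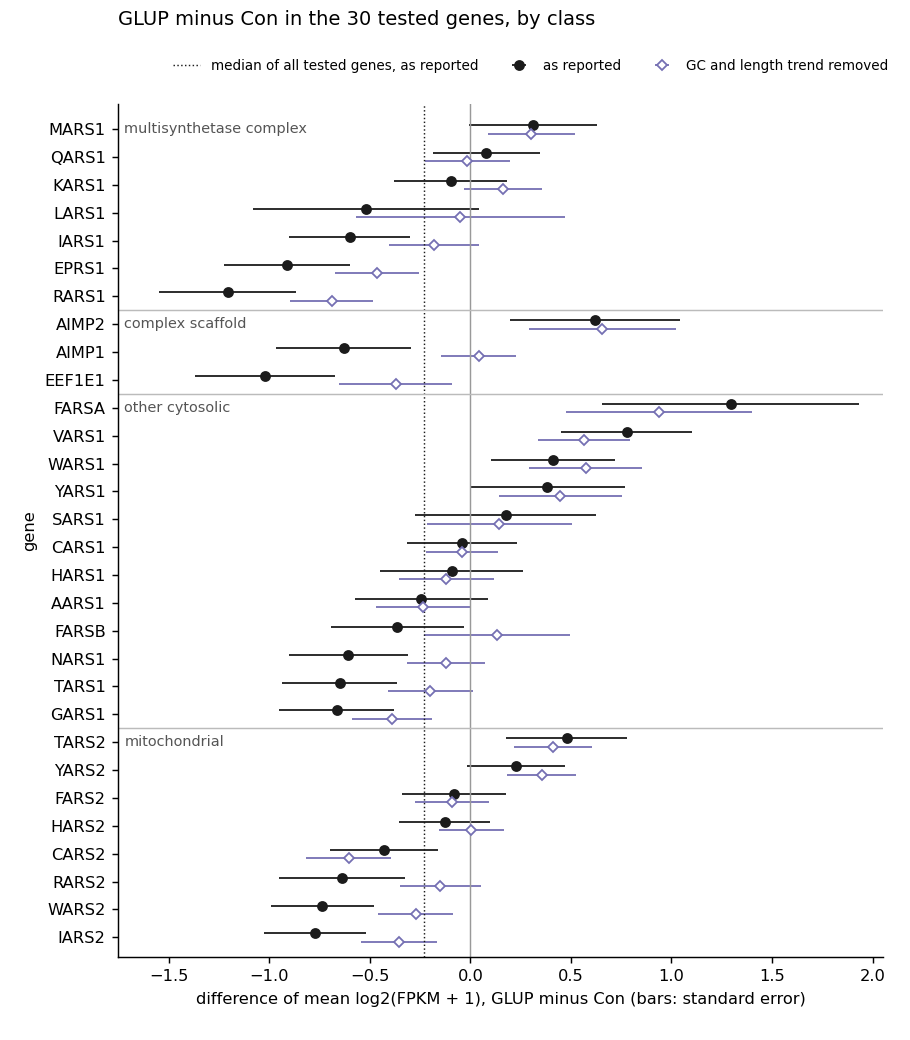
Difference of mean log2(FPKM + 1), GLUP minus Con, for the 30 tested members by class, as reported (black circles) and after removal of the GC and length trend of each library (open diamonds), with bars for the limma standard error. The dotted line marks the median of all tested genes at -0.23, and RARS1 (-1.21) and FARSA (1.29) stand at the ends of the range, the latter with a bar of 0.64.

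Among the synthetases of the complex, RARS1 and EPRS1 were the pair that passed the unadjusted threshold, both lower in GLUP. RARS1, the arginine enzyme (chr5:167913456-167946306, plus strand, GRCh37), stood at 37.7, 45.6 and 21.3 FPKM in Con 1 to 3 and at 15.6, 13.4 and 12.7 FPKM in GLUP 1 to 3. Each GLUP library lay below each control, and Con 3 was the control nearest to GLUP. The mean of RARS1 was 34.9 ± 12.4 FPKM in the controls (SD, n = 3) and 13.9 ± 1.502 FPKM with GLUP (SD, n = 3), a log2 difference of -1.21 (SE 0.34, unadjusted limma p = 0.0054, exact permutation p = 0.1, adjusted p = 0.194), or 2.31-fold lower on the log2(FPKM + 1) scale. With the GC and length trend removed the difference was -0.69 (adjusted p = 0.208).

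EPRS1 encodes the enzyme that charges both glutamate and proline tRNAs. Its values were 17.7, 26.6 and 15.2 FPKM in Con and 11.7, 9.51 and 8.37 FPKM in GLUP, again without overlap and with Con 2 the highest. The log2 difference of EPRS1 was -0.91 (SE 0.31, unadjusted limma p = 0.0157, exact permutation p = 0.1, adjusted p = 0.198), and -0.47 with the trend removed. IARS1, the isoleucine enzyme, was also lower without overlap, at 14.1 ± 2.56 FPKM in Con and 9.02 ± 2.10 FPKM in GLUP (SD, n = 3 each), with a log2 difference of -0.60 (adjusted p = 0.258 by limma) that was -0.18 with the trend removed.

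LARS1, the leucine enzyme and the most abundant of this class, varied more within the groups than between them. It stood at 22.6, 60.6 and 20.8 FPKM in Con and at 17.2, 10.9 and 48.7 FPKM in GLUP. One library in each group, Con 2 and GLUP 3, stood far above the rest of its group, and the groups overlapped. Its log2 difference was -0.52 (SE 0.56, adjusted p = 0.564 by limma), and -0.05 with the trend removed. Without Con 2 it was -0.04, without GLUP 2 it was -0.07, and without GLUP 3 it was -1.10. KARS1 and QARS1, for lysine and glutamine, differed by -0.10 and 0.08, less than their standard errors of 0.28 and 0.27, and KARS1 turned to 0.18 under trimmed-mean scaling and 0.16 with the GC trend removed.

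MARS1, the methionine enzyme, had the most positive difference of the complex. Its values were 12.5, 6.16 and 11.4 FPKM in Con and 11.7, 12.5 and 12.4 FPKM in GLUP. Con 2 alone was low, and the other five libraries lay within a narrow range. For MARS1 the log2 difference was 0.31 (SE 0.32, adjusted p = 0.540 by limma) and 0.03 without Con 2. MARS1 overlaps DDIT3 on the opposite strand (mean 128 FPKM), and since strand-specific counting is not stated, reads of the overlap cannot be assigned with certainty.

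The 3 scaffolds had differences of both signs. EEF1E1, also known as AIMP3 (chr6:8073593-8102792, minus strand, GRCh37), stood at 309, 204 and 132 FPKM in Con and at 103, 99.7 and 96.1 FPKM in GLUP. The GLUP libraries were close to each other and below every control, of which Con 3 was again the nearest. The log2 difference of EEF1E1 was -1.02 (SE 0.35, unadjusted limma p = 0.0151, exact permutation p = 0.1, adjusted p = 0.198), or 2.03-fold lower, and it was -0.37 (adjusted p = 0.468) with the GC and length trend removed. EEF1E1 has one of the lowest GC contents of the members, at 36.4%.

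AIMP2 was the most abundant member of all. It stood at 449, 161 and 508 FPKM in Con and at 482, 465 and 597 FPKM in GLUP, so that Con 2 was far below the other five and the groups overlapped. For AIMP2 the log2 difference was 0.62 (SE 0.42, adjusted p = 0.365 by limma) and 0.10 without Con 2. AIMP2 overlaps EIF2AK1 on the opposite strand, which was expressed at 4.34 FPKM. AIMP1 stood at 15.6, 19.6 and 9.09 FPKM in Con and at 7.97, 8.01 and 10.6 FPKM in GLUP, with GLUP 3 above Con 3, and its difference of -0.63 (adjusted p = 0.275) became 0.04 with the GC trend removed.

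Ratios between partners within a library do not depend on the scaling of that library. The ratio of AIMP2 to EEF1E1 was 1.45, 0.789 and 3.85 in Con and 4.68, 4.67 and 6.21 in GLUP, higher in each GLUP library than in any control. AIMP2 to AIMP1 was 28.7, 8.24 and 55.8 in Con and 60.5, 58.1 and 56.5 in GLUP, and Con 3 came within a small margin of the GLUP values. EEF1E1 to AIMP1, a pair of like GC content, was 19.7, 10.4 and 14.5 in Con and 12.9, 12.4 and 9.10 in GLUP, with overlap. Both AIMP2 ratios set a gene of 51.2% GC against genes of 36.4% and 35.2%, and they were lowest in Con 2, the library with the strongest tilt towards low GC. The part of that tilt in the ratios was not tested.

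Of the other cytosolic synthetases, GARS1 and TARS1 were lower and VARS1 was higher at the unadjusted threshold. GARS1, the glycine enzyme of both compartments, stood at 81.2, 69.3 and 67.6 FPKM in Con and at 53.4, 42.2 and 41.3 FPKM in GLUP. Every GLUP value lay below every control. For GARS1 the log2 difference was -0.66 (SE 0.29, unadjusted limma p = 0.0428, exact permutation p = 0.1, adjusted p = 0.219), and -0.39 with the GC trend removed. The ratio of GARS1 to KARS1, the other dual-compartment enzyme and a gene of nearly equal GC content (47.1% and 47.3%), was 4.48, 5.45 and 4.75 in Con and 3.63, 3.002 and 3.24 in GLUP, lower in each GLUP library than in any control. GARS1 overlaps the divergent transcript GARS1-DT (7.87 FPKM) on the opposite strand.

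TARS1, the threonine enzyme, stood at 16.4, 12.04 and 11.1 FPKM in Con and at 9.22, 7.49 and 7.16 FPKM in GLUP, without overlap. The log2 difference of TARS1 was -0.65 (SE 0.29, unadjusted limma p = 0.0470, exact permutation p = 0.1, adjusted p = 0.226) and -0.20 with the trend removed. NARS1, the asparagine enzyme, was lower without overlap too, at 26.3 ± 5.91 FPKM in Con and 16.7 ± 1.19 FPKM in GLUP (SD, n = 3 each), with a log2 difference of -0.61 (adjusted p = 0.254 by limma) that was -0.12 with the trend removed.

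VARS1, the valine enzyme, was 0.998, 0.595 and 2.53 FPKM in Con and 3.85, 2.53 and 2.31 FPKM in GLUP. GLUP 3 lay below Con 3, so the groups overlapped, and Con 1 and Con 2 were the low libraries. Its log2 difference was 0.78 (SE 0.33, unadjusted limma p = 0.0384, exact permutation p = 0.3, adjusted p = 0.211) and 0.57 with the trend removed. VARS1 and FARSA have the highest GC contents of the tested members, at 61.7% and 61.3%.

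FARSA and FARSB encode the subunits of the cytosolic phenylalanine enzyme, which works as a complex of both. FARSA (chr19:13033293-13044851, minus strand, GRCh37) stood at 65.7, 10.7 and 80.9 FPKM in Con and at 122, 93.8 and 79.6 FPKM in GLUP. Con 2 was the outlying value, and GLUP 3 lay just below Con 3. The log2 difference of FARSA, 1.29 (SE 0.64, adjusted p = 0.255 by limma), was the most positive of all members and was 0.41 without Con 2. FARSB was 8.43 ± 3.801 FPKM in Con and 5.95 ± 0.156 FPKM in GLUP (SD, n = 3 each), a difference of -0.36 that became 0.13 with the GC trend removed. The ratio of FARSA to FARSB was 5.22, 2.09 and 10.6 in Con and 20.2, 16.3 and 13.2 in GLUP, with no overlap. The subunits differ in GC content (61.3% and 40.0%), and the part of this in the ratio was not tested.

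**Figure D3:**
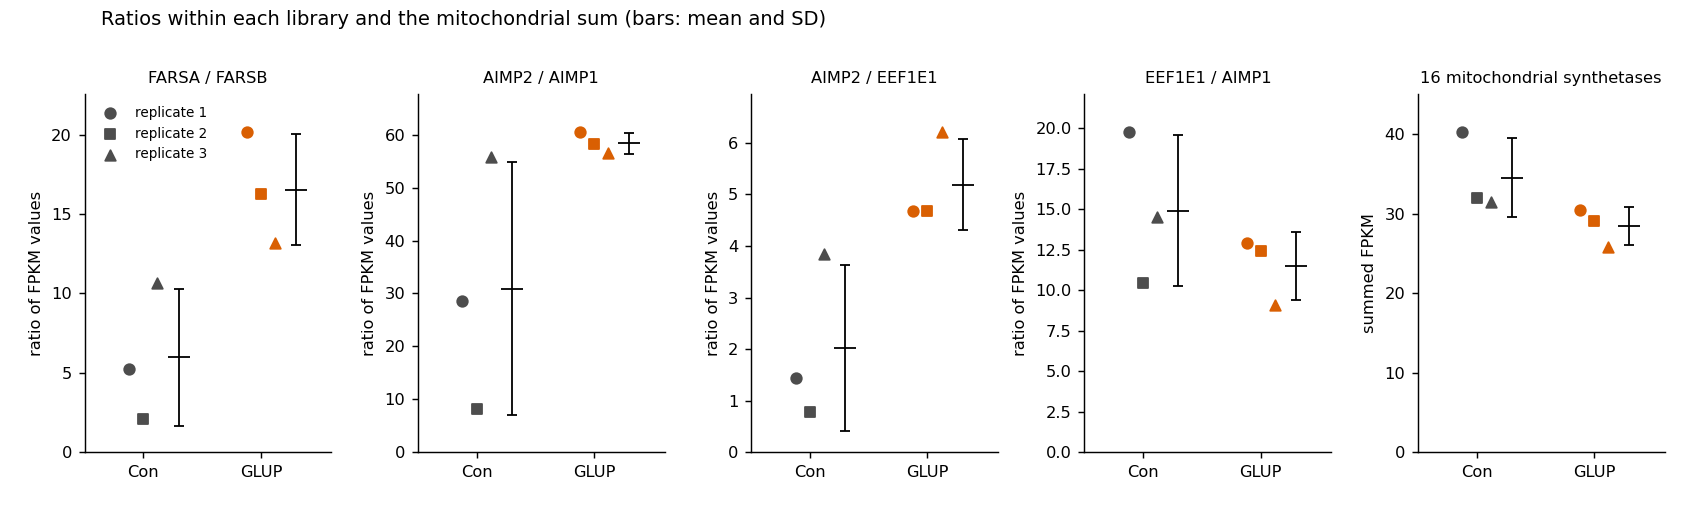
Ratio of FPKM values of 4 pairs of partners within each library, and the summed FPKM of the 16 mitochondrial synthetases, in Con (grey) and GLUP (orange), with the replicate number as the symbol and bars for the mean and SD of 3 libraries. The GLUP ratios lie above every control except for EEF1E1 to AIMP1, which overlaps, and the unscaled GLUP sums of 25.8 to 30.4 FPKM lie below the control sums of 31.4 to 40.2 FPKM, which overlap after trimmed-mean scaling.

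WARS1, the tryptophan enzyme and the most abundant of these synthetases, stood at 230, 210 and 256 FPKM in Con and at 268, 248 and 437 FPKM in GLUP. GLUP 3 was far above the rest, and GLUP 2 lay below Con 3. Its log2 difference was 0.41 (SE 0.31, adjusted p = 0.409 by limma). SARS1 ranged from 88.5 FPKM in Con 2 to 314 FPKM in Con 3, which took in all the GLUP values. The difference of SARS1 was 0.18, or 0.14 with the trend removed, and turned to -0.39 without Con 2. YARS1, the tyrosine enzyme, differed by 0.38, or 0.45 with the trend removed, which turned to -0.04 without Con 2. AARS1, CARS1 and HARS1, for alanine, cysteine and histidine, differed by -0.24, -0.04 and -0.09, each less than its standard error, and all 3 became positive under trimmed-mean scaling. HARS1 overlaps the mitochondrial gene HARS2 on the opposite strand.

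The mitochondrial synthetases, which supply translation of the few proteins encoded in mitochondrial DNA, had a lower summed FPKM with GLUP, a difference that depended on the scaling. Their summed level was 40.2, 31.9 and 31.4 FPKM in Con and 30.4, 29.1 and 25.8 FPKM in GLUP. The groups did not overlap, and GLUP 1 came near to Con 3. After trimmed-mean scaling, applied to the sum after the data were seen, the sums were 32.8, 27.4 and 32.9 in Con and 33.5, 32.7 and 28.4 in GLUP, and the groups overlapped. Of the 8 tested genes, 6 had lower means in GLUP, a median difference of -0.28 against -0.23 for all genes. The summed level of the cytosolic synthetases was 630 to 928 FPKM in Con and 755 to 951 FPKM in GLUP, with overlap.

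IARS2, the mitochondrial isoleucine enzyme, stood at 2.80, 2.89 and 1.69 FPKM in Con and at 1.11, 1.31 and 0.631 FPKM in GLUP. All GLUP values lay below all controls. The log2 difference was -0.77 (SE 0.26, unadjusted limma p = 0.0129, exact permutation p = 0.1, adjusted p = 0.194) and -0.35 with the trend removed. WARS2, for tryptophan, stood at 2.69, 3.85 and 2.19 FPKM in Con and at 1.45, 0.955 and 1.58 FPKM in GLUP, also without overlap. Its difference was -0.74 (SE 0.26, unadjusted limma p = 0.0173, exact permutation p = 0.1, adjusted p = 0.198) and -0.27 with the trend removed. The cytosolic tryptophan gene WARS1 had the opposite sign, whereas IARS1 and IARS2 had the same, as did 5 of the 7 pairs with both genes tested. With 65.5% of all genes tested lower in GLUP, shared signs are common, and those of CARS1, HARS1 and HARS2 turned under other settings. The count is therefore not read as a result about the pairs.

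CARS2, the cysteine enzyme and the most abundant mitochondrial synthetase, stood at 7.85, 6.82 and 8.79 FPKM in Con and at 4.80, 6.47 and 5.39 FPKM in GLUP. The groups did not overlap, although GLUP 2 came close to Con 2. The log2 difference was -0.43 (SE 0.27, adjusted p = 0.330 by limma). CARS2 has a GC content of 55.9%, and with the trend removed its difference was larger, -0.60 (adjusted p = 0.229). It was the member of high GC content that lay lower in GLUP without overlap.

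TARS2, the mitochondrial threonine enzyme, stood at 3.07, 1.45 and 3.06 FPKM in Con and at 4.66, 4.03 and 2.85 FPKM in GLUP, with GLUP 3 below Con 1 and Con 3. The log2 difference was 0.48 (SE 0.30, adjusted p = 0.331 by limma), the most positive of this class, and 0.41 with the trend removed. RARS2 differed by -0.64 (-0.15 with the trend removed) and YARS2 by 0.23 (0.36 with the trend removed). FARS2 and HARS2 differed by -0.08 and -0.13, less than their standard errors. FARS2 and HARS2 turned to 0.17 and 0.06 under trimmed-mean scaling.

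Of the 8 mitochondrial genes below the minimum, SARS2 and NARS2 had groups that did not overlap. The share among all genes below the minimum is not given here, so this count is not read as a result about the members. Their GC contents were 61.4% and 43.9%. SARS2, the serine enzyme, was higher with GLUP, at 0.737, 0.0930 and 0.408 FPKM in Con and 1.54, 0.871 and 1.08 FPKM in GLUP, with an adjusted p of 0.589 in the limma fit without a filter. NARS2, for asparagine, was lower, at 1.71, 0.735 and 0.517 FPKM in Con and 0.423, 0.190 and 0.322 FPKM in GLUP (adjusted p = 0.589). Values under 1 FPKM rest on few fragments of a number that is not known.

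The differences between members followed GC content closely. All 13 tested members below the median GC content of tested genes (47.2%) had lower means in GLUP, as did 86.7% of all such genes. Of the 17 members above it, 7 were lower and 10 higher, while 44.4% of all such genes were lower. The 7 members that were lower at the unadjusted threshold were all among the 13. Across the 30 members, which share the same 6 libraries, the correlation of the log2 difference with GC content was 0.82 (Pearson) and 0.75 (Spearman), against 0.54 and 0.56 over 7279 genes. Con 2 was the lowest of the 6 libraries for 12 of the 17 members above the median and the highest for 6 of the 13 below it. Among all genes Con 2 was the lowest for 1836 of 3640 above the median and the highest for 2037 of 3639 below it. After the trend was removed, 17 members were lower and 13 higher, and 3 had an unadjusted p under 0.05 (RARS1 and CARS2 lower, VARS1 higher), against 18.0% of all genes.

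**Figure D4:**
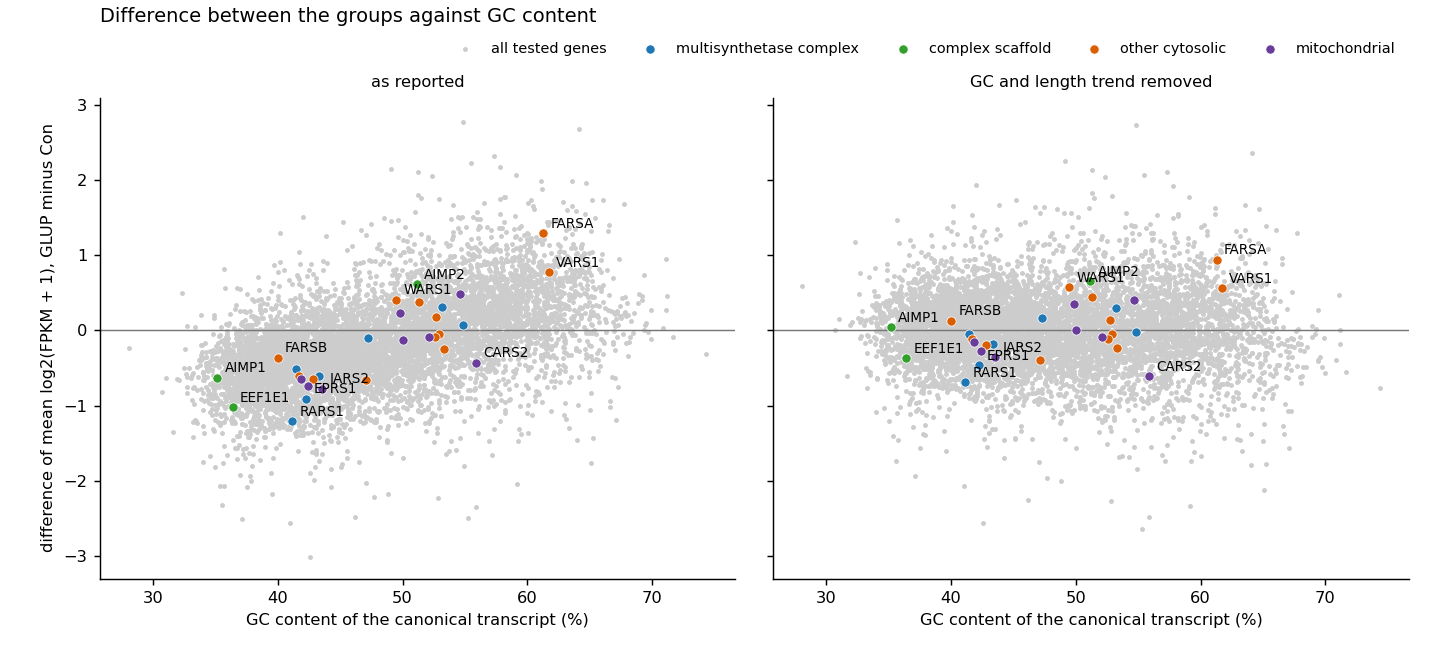
Difference of mean log2(FPKM + 1), GLUP minus Con, against the GC content of the canonical transcript in percent. The 30 tested members are coloured by class and all tested genes are grey. Values are shown as reported (left) and after removal of the GC and length trend of each library (right). As reported, the members below the median GC content of tested genes (47.2%) all lie below 0, and those above it lie on both sides, from FARSA at 1.29 to CARS2 at -0.43. With the trend removed, AIMP1 (0.041) and FARSB (0.13), both below that median, lie above 0.

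The count of members past a threshold also rested on single libraries. Without Con 3, the control whose GC trend was like that of the GLUP libraries, 7 members had an adjusted p under 0.05 in limma (RARS1, EPRS1, EEF1E1, IARS2, WARS2 and RARS2 lower, VARS1 higher), among 1367 genes in all (18.5% of those tested). Without Con 2 there were 0 such members among 3 genes, and the members with an unadjusted p under 0.05 became 10, all lower, where 14.8% of all genes were lower and 3.93% higher at that threshold. The spread within the groups was unequal, with a median SD over members of 0.41 in Con and 0.20 in GLUP on the log2 scale, close to 0.43 and 0.20 over all genes.

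The members whose promoter held TGATGNAA, shown above, were not set apart clearly by their values. Of these 8, all tested, 6 had lower means in GLUP and 2 higher (MARS1 and YARS2), with a median difference of -0.42 and a range of -0.66 to 0.31. Of the 19 tested members with a window and no match, 13 were lower and 6 higher, with a median of -0.13 and a range of -1.21 to 1.29. With the GC and length trend removed the medians were -0.15 and -0.02. RARS1, EPRS1 and EEF1E1, the genes with the most negative differences, held no match in their windows.

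Other genes of the same chemistry were examined by list, and the lists were chosen with earlier results of these data known. The amino acid response list holds GCN2 (EIF2AK4), its regulators GCN1 and IMPACT, ATF4, and genes induced through GCN2 and ATF4 when uncharged tRNA accumulates. Its median difference was -0.13 over 18 tested genes of 22 listed. With the GC and length trend removed the median was 0.10, with 6 genes lower and 11 higher. Of the 18 tested genes, 4 had an unadjusted p under 0.05 in limma, all lower in GLUP (DDIT3, MTHFD2, SLC7A11 and CEBPG), and 0 were higher. The 4 are 22.2% of the list, near the 17.2% of all genes. With the GC and length trend removed there were 3 lower and 1 higher at that threshold, against 9.23% and 8.79% of all genes. Without Con 3 there were 5 lower and 5 higher, where 31.5% of all genes were lower and 8.86% higher. These runs of the lists without a library or without the GC trend were added after the data were seen. DDIT3, a transcription factor downstream of ATF4, stood at 159, 160 and 173 FPKM in Con and 84.0, 72.0 and 117 FPKM in GLUP, a difference of -0.87 (adjusted p = 0.198), and -0.81 with the GC trend removed. With the trend removed MTHFD2, SLC7A11 and CEBPG differed by -0.18, -0.09 and -0.66. ATF4 itself was 49.4 ± 9.57 FPKM in Con and 39.9 ± 3.91 FPKM in GLUP (SD, n = 3 each). Its difference was -0.29 (adjusted p = 0.536 by limma), and -0.36 with the trend removed. ASNS, the asparagine synthetase and a target of ATF4, differed by -0.45 (adjusted p = 0.334 by limma), and by 0.012 with the trend removed.

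The list of genes that mature and export tRNA had a lower median difference than the members as a whole. Of 27 tested genes (28 listed), 11 had an unadjusted p under 0.05 in limma, all lower in GLUP, which is 40.7% against 17.2% of all genes, and 0 were higher. The median difference was -0.49, or -0.26 with the GC and length trend removed, when 7 were lower and 1 higher at that threshold, against 9.23% and 8.79% of all genes. The counts were 9 lower and 0 higher without Con 2 (14.8% and 3.93% of all genes), and 14 lower and 2 higher without Con 3 (31.5% and 8.86% of all genes). TRNT1, which adds the CCA end that a synthetase charges, stood at 16.6, 17.1 and 9.31 FPKM in Con and 6.17, 5.60 and 5.80 FPKM in GLUP, a difference of -1.12 (adjusted p = 0.194) and of -0.49 with the trend removed. ELAC2, which trims the 3′ end of precursor tRNA and has a GC content of 54.1%, stood at 4.12, 2.54 and 3.16 FPKM in Con and 1.00, 1.25 and 1.40 FPKM in GLUP, a difference of -0.93 (adjusted p = 0.194) and of -0.94 with the trend removed. POP5, a subunit of RNase P, stood at 273, 371 and 183 FPKM in Con and 88.0, 125 and 147 FPKM in GLUP, and its difference of -1.17 (adjusted p = 0.194) was -1.06 with the trend removed. The groups of all 3 genes did not overlap. In the list, 13 genes were lower without overlap and 2 higher, against 22.7% and 7.55% of all genes. The 2 were POP7, another subunit of RNase P (0.62, or 0.37 with the trend removed), and HSD17B10 of mitochondrial RNase P (0.95, or 0.74). XPOT, which exports tRNA, had overlapping groups and differed by -0.22, or 0.26 with the trend removed.

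The elongation factors that carry charged tRNA to the ribosome (EEF1A1 and TUFM) and the genes of their nucleotide exchange factors (EEF1B2, EEF1D, EEF1G and TSFM) had positive differences. These were all 6 tested genes of 7 listed, with a median difference of 0.47, or 0.56 with the trend removed, and 0 of them had an unadjusted p under 0.05 in limma (3 without Con 3, all higher, as were 8.86% of all genes). TUFM, the mitochondrial factor, stood at 38.5, 17.1 and 53.8 FPKM in Con and 71.5, 58.6 and 53.0 FPKM in GLUP (adjusted p = 0.251 by limma), with Con 2 the lowest. The 4 helpers that complete mitochondrial glutaminyl and initiator tRNA (QRSL1, GATB, GATC and MTFMT) had a median of -0.25, near the -0.23 of all genes. With the trend removed it was -0.0042, with 2 lower and 2 higher. In limma 0 of the 4 had an unadjusted p under 0.05.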

How the data were processed

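RNA of 6 HGC-27 samples (3 Con, 3 GLUP, grouped by the sample titles) was analysed from the table of FPKM values deposited by the authors. The submitters' processing notes name HISAT2, Cufflinks, RSEM and GRCh38.p10, without roles, whereas the gene identifiers carry the suffixes of a GENCODE annotation lifted to GRCh37. No read counts are given, so the depth is unknown, and tests for counts were not used. The 49 pseudoautosomal copies, all at 0, were summed with their counterparts, leaving 62443 genes. Ensembl identifiers were turned into symbols for 62162 of them, and overlaps between genes, GC content and transcript length were taken from GENCODE 44 lifted to GRCh37. GC content was available for 98.3% of tested genes.

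The 7406 genes that averaged 1 FPKM or more were compared on log2(FPKM + 1) with the linear model of limma 3.58.1 (trended eBayes) under R 4.3.3. Tests were two-sided and adjusted by Benjamini-Hochberg over these genes. Exact permutation p-values for single genes enumerated every assignment of labels and are two-sided. A fold change on this scale understates the change of low genes. Members below the minimum took theirs from an unfiltered fit. The fit was tested on simulated data. Members with an unadjusted p under 0.05, and the highest, most positive and most negative member of each class, are given in full. The members, classes and lists were chosen with earlier results of these data known. Alternatives were a pseudocount of 0.1, no filter, trimmed-mean scaling (30% by ratio, 5% by level), subtraction of each library's loess trend on GC content and length (span 0.5), the replicate number as a block, eBayes without trend, and leaving out each library. Same-numbered libraries had correlations of their deviations from the group means of 0.13, -0.01 and -0.17, so the numbers were not taken as pairs. No value above 0 was identical between libraries. Summaries and plots were made in Python 3.11.15 (pandas 2.3.3, numpy 2.4.6, matplotlib 3.10.9).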

Additional observations from a re-analysis of the deposited data

How the results depend on the processing

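Of the 30 tested members, 19 kept the sign of their difference under every alternative and 11 did not. Dropping the filter, the replicate block and eBayes without trend cannot move the difference of a tested member. The signs were therefore tried only by the pseudocount, the scaling, the trend removal and the leaving out of libraries. Past an adjusted p of 0.05 there were 1 gene with the replicate block, 2 after correction for GC content and length, 1 under eBayes without trend, and 0 to 1367 when a library was left out (the highest without Con 3). Members with an unadjusted p under 0.05 were 3 with the trend removed, 7 with the replicate block, and 3 to 13 when a library was left out, against 18.0%, 20.4% and 10.6% to 40.3% of all genes. Members whose groups did not overlap were 10 to 16 when a library was left out. Groups of fewer libraries overlap less readily, and the share of all genes in these runs is not given here. The counts are therefore not read as a result about the members. The block changed no member's adjusted call. The cytosolic median was 0.11 under trimmed-mean scaling and -0.40 to -0.024 when a library was left out, and the mitochondrial median was -0.093 without a filter, -0.059 under trimmed-mean scaling and -0.12 with the trend removed. The mitochondrial sum, GLUP minus Con, turned to 0.518 FPKM under trimmed-mean scaling, added after the data were seen. Signs turned under trimmed-mean scaling for KARS1 (0.18), AARS1 (0.034), CARS1 (0.22), HARS1 (0.19), FARS2 (0.17) and HARS2 (0.056), and with the trend removed for KARS1 (0.16), QARS1 (-0.016), AIMP1 (0.041), FARSB (0.13) and HARS2 (0.0047). When a library was left out the difference ranged from -0.20 to 0.037 for KARS1, -0.059 to 0.18 for QARS1, -0.14 to 0.077 for CARS1, -0.45 to 0.16 for HARS1, -0.39 to 0.52 for SARS1, -0.042 to 0.62 for YARS1 and -0.14 to 0.014 for FARS2. The cause of these shifts was not tested. FPKM without read counts gives no counting error for the low mitochondrial genes.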
